A study of Mus musculus with 6 samples.

Results

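Interferon effector genes are described here through the RNA polymerase II that lies on them in the adrenal gland. The set holds 10 of the 12718 genes counted: Ifit1, Ifit3, Ifit3b, Oas1a, Oasl2, Isg15, Rsad2, Cmpk2, Bst2 and Rtp4. They were chosen by name and selected on their knockout against wild-type differences in these same libraries, which were known beforehand. Those differences between the genotypes are therefore a description, and the counts of calls among them support nothing beyond these values. The assay was ChIP-seq, in which chromatin fragments bound by RPB1, the catalytic core subunit of the polymerase, were pulled down with an antibody against its N-terminal domain and sequenced. Adrenal glands came from 3 wild-type (WT) and 3 Armc5(-/-) female mice, all of the strain 129 sv X CD1 and 10 to 14 months old. Armc5 encodes an armadillo-repeat protein known as the substrate adaptor of a cullin ubiquitin ligase that acts on RPB1. The labels name no treatment or infection for either genotype. The 6 libraries carry 6 different mouse numbers and were taken as separate animals, so n = 3 per genotype throughout.

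Type I interferons bind a receptor on the cell surface whose Janus kinases signal to the complex ISGF3, of which IRF9 is a part. ISGF3 binds interferon-stimulated response elements in promoters and starts the transcription of effector genes. IFIT proteins bind viral RNA that lacks the host's cap marks, OAS enzymes make short adenylate chains that activate the nuclease RNase L, and ISG15 is a ubiquitin-like protein that is joined to other proteins. Rsad2 (viperin) and Cmpk2 act on nucleotides, Bst2 (tetherin) holds budding virus particles at the cell membrane, and Rtp4 is a receptor chaperone induced by interferon.

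The promoter sequences below show which of these genes carry the response element next to their start and how alike the promoters of neighbouring copies are. RefSeq promoters of GRCm38.p6, each with 250 bases before and 50 after a start, were found for 9 of the 10 genes. They were searched on both strands for the core of the element, a GAAA run, any 2 bases and another GAAA run (on the other strand TTTC, any 2 bases and TTTC), with overlapping matches counted. The core was found in 7 of these 9 promoters, against 3.44% of 32851 promoters in the table. The promoters of Oasl2 and Cmpk2 held no match. Each stretch is written 5′ to 3′ on the gene's own strand, with the matches in capitals.
Ifit1, chr19:34640775-34640823, plus strand, bases -114 to -66 from the start: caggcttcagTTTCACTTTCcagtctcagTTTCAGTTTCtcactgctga
Ifit3, chr19:34583363-34583392, plus strand: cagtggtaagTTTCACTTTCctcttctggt
Ifit3, chr19:34583397-34583426, plus strand: tttaagtctgTTTCAGTTTCtactttcctc
Ifit3b, chr19:34607759-34607788, plus strand: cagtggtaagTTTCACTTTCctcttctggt
Ifit3b, chr19:34607793-34607822, plus strand: tttaagtctgTTTCAGTTTCtactttcctc
Oas1a, chr5:120907526-120907555, minus strand, bases -30 to -1: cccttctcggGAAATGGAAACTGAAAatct
Isg15, chr4:156200865-156200906, minus strand, bases -88 to -47: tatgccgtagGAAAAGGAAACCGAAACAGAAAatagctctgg
Rsad2, chr12:26456553-26456582, minus strand, bases -130 to -101: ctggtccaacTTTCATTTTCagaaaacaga
Bst2, chr8:71537577-71537612, minus strand, bases -140 to -105: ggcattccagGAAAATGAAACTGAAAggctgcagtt

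Both stretches of Ifit3 were repeated letter for letter in Ifit3b, and the 2 promoters shared an identical run of 169 bases. The stretches of Ifit3 begin at bases -166 and -132 from the start, and those of Ifit3b at -198 and -164. For these 2 genes and Oas1a the start used lies inside the RefSeq gene span given below, not at its edge. Isg15 held 3 overlapping matches, and Oas1a and Bst2 held 2 overlapping matches each. A match is a stretch of letters only, and binding of a factor was not measured here.

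Reads had been counted by the authors per gene in a window at the transcription start site (TSS), in the gene body and in a window at the transcription end site (TES). Totals per library ran from 1133364 to 3406223 counts at the TSS, from 12419812 to 22523647 in the gene body and from 958001 to 2294430 at the TES. Summed counts were lowest in knockout replicate 1 and in WT replicates 1 and 2. The first principal component held 47.3%, 60.9% and 46.1% of the variance in the 3 regions. These 3 libraries had negative values on it in each region, and the rest had positive values. They formed a group only for the TSS, with -24.2, -23.1 and -36.5 against 21.4 to 31.4. Over the gene body WT replicate 2 stood alone at -44.8. WT replicate 1 (-8.07) and knockout replicate 1 (-10.7) lay nearer to knockout replicate 3 (11.7) there. The TES values of these libraries, -51.1, -6.37, -15.5 and 14.0 in the same order, had the same pattern. Armc5 itself was not analysed here, so the genotype labels were not checked at the targeted gene. A single predicted gene, Gm10800, took from 2.67% to 25.1% of the TSS counts. Cortex genes of the adrenal were present: Star, which moves cholesterol into mitochondria for steroid synthesis, had 595 ± 278 CPM (counts scaled by library depth, as below) in the gene body in WT and 501 ± 52.0 in the knockout (SD, n = 3). Over the 10 cortex markers the median log2 fold change, knockout over WT, was -0.02, 0.13 and 0.25 in the 3 regions, with 5, 7 and 9 of them above 0 and none called.

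RPB1 on these genes was higher in the knockout libraries in most regions. All 30 log2 fold changes (10 genes in 3 regions) were above 0, where 48.4%, 46.3% and 47.7% of all genes tested at TSS, gene body and TES were, and in 25 of the 30 every knockout library lay above every WT library. The median log2 fold change of the 10 genes was 1.19 for the TSS, 1.09 for the gene body and 1.26 for the TES, where the medians of all genes tested were -0.01, -0.02 and -0.02. The 10 genes passed the low-count filter in all 3 regions. The groups did not overlap at the TSS of 8 genes, the gene body of 9 and the TES of 8, and over all genes tested 6.47%, 6.51% and 6.69% had every knockout library above every WT library. In bulk tissue, more cells with polymerase on a gene and more polymerase per cell cannot be told apart.

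**Figure D1:**
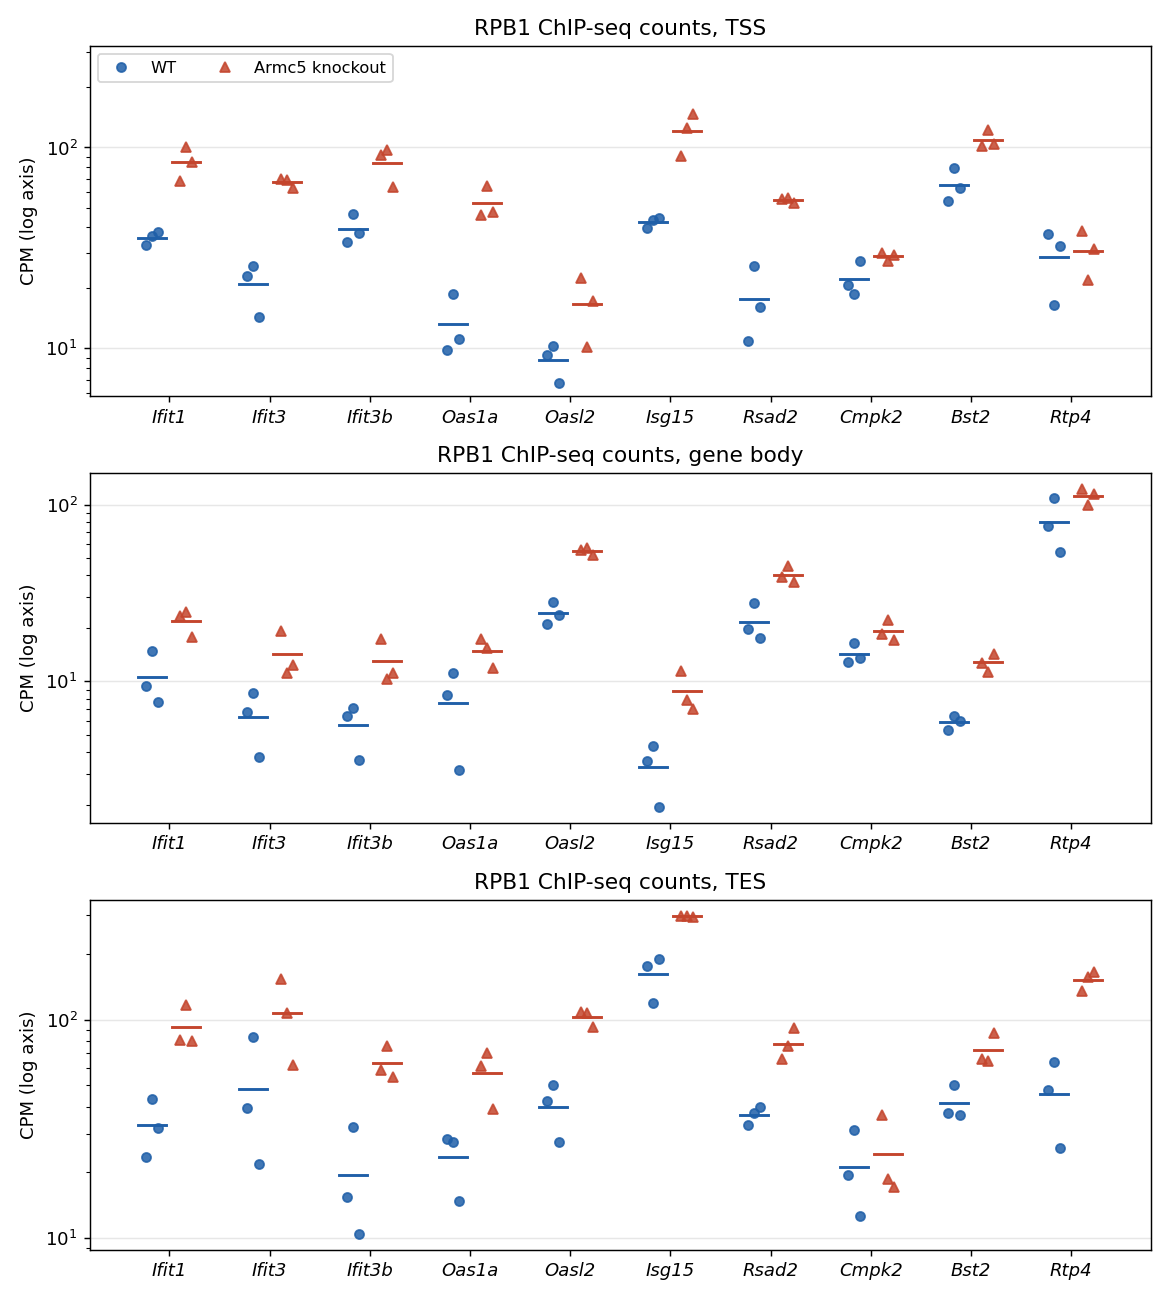
Scaled RPB1 ChIP-seq counts (CPM, log axis) of the 10 genes in the TSS window, the gene body and the TES window. Each point is 1 library (circles WT, triangles Armc5 knockout), bars are group means (n = 3), and the groups stand apart except for Oasl2 and Rtp4 at the TSS, Rtp4 in the gene body, and Ifit3 and Cmpk2 at the TES.

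A gene was called where its edgeR quasi-likelihood p, adjusted by Benjamini-Hochberg over the whole table of a region, was under 0.05. At the TSS 5 of the 10 genes rose (Ifit1, Ifit3, Oas1a, Isg15 and Rsad2), against 0.339% of all genes tested called higher. In the gene body 1 of 10 rose (Oasl2), against 0.244%. At the TES 7 of 10 rose (Ifit1, Ifit3, Ifit3b, Oas1a, Oasl2, Rsad2 and Rtp4), against 0.812%. Cmpk2 and Bst2 were called in no region, and no gene was called in all 3. The same contrast chose the genes, so nothing is read from these counts. They also changed when 1 library was left out. At the TSS none of the 10 was called without WT replicate 1, without knockout replicate 2 or without knockout replicate 3. Over all genes these fits called 14, 14 and 5 higher, against 43 with all libraries. Without WT replicate 2, 3 were called (Ifit1 and Isg15 lost), and 4 without WT replicate 3 (Rsad2 lost). Over the left-out libraries the TSS log2 fold changes ran from 1.10 to 1.38 for Ifit1, 1.47 to 1.87 for Ifit3, 1.89 to 2.32 for Oas1a, 1.34 to 1.66 for Isg15 and 1.45 to 2.01 for Rsad2. In the gene body Oasl2 stayed called only without WT replicate 2. At the TES between 5 and 7 were called whichever library was left out, and Ifit3 lost its call without WT replicate 1, WT replicate 3, knockout replicate 1 or knockout replicate 2, Oas1a without knockout replicate 2 and Rsad2 without WT replicate 1. The TES call of Ifit3 was also lost with table totals, joint scaling, the stricter count filter and DESeq2, and the TSS call of Ifit1 with limma-voom. A fit with the depth class of the libraries as a covariate called 7, 4 and 8 of the 10 genes in the 3 regions, with median log2 fold changes of 1.17, 1.20 and 1.48. Over all genes that fit called 143, 94 and 156 higher, against 43, 31 and 103 without the covariate. Each class holds only 1 library of one genotype, so no test was made inside a class.

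The IFIT genes lie side by side on chromosome 19. At the TSS of Ifit1 (chr19:34640889-34650009) the WT libraries had 32.7, 36.2 and 37.7 CPM and the knockout libraries 68.1, 101 and 84.5 CPM, in the order of replicates 1 to 3 here and below. Its gene body had 9.45, 14.9 and 7.69 CPM in WT against 23.6, 24.7 and 17.7 CPM in the knockout. At its TES the values were 23.6, 43.1 and 31.9 CPM in WT against 80.5, 117 and 80.1 CPM in the knockout. The groups stood apart in each region, with knockout replicate 2 the highest of all in each. The log2 fold changes of Ifit1 were 1.25 ± 0.20 for the TSS, 1.06 ± 0.27 for the gene body and 1.52 ± 0.24 for the TES (± SE here and below). Its neighbour Ifit1bl2, another IFIT family gene, is read from the opposite strand and starts 146 bp away, so both TSS windows can hold the same fragments. Ifit1bl2 had 31.6, 38.3 and 43.2 CPM at the TSS in WT against 67.0, 117 and 94.8 CPM in the knockout. Its log2 fold changes were 1.31 ± 0.24 for the TSS, 0.04 ± 0.33 for the gene body and 0.08 ± 0.44 for the TES. How far its TSS value repeats that of Ifit1 was not tested.

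Ifit3 (chr19:34583119-34588982) and Ifit3b (chr19:34607530-34613403) are near copies, and reads that match both could have been assigned to either. The TSS of Ifit3 had 22.9, 25.9 and 14.4 CPM in WT against 69.8, 69.0 and 62.6 CPM in the knockout. For Ifit3b the same window had 33.8, 46.5 and 37.4 CPM in WT against 91.7, 96.9 and 63.7 CPM in the knockout. Both genes stood apart between the groups there, with log2 fold changes of 1.72 ± 0.25 for Ifit3 and 1.12 ± 0.22 for Ifit3b. In the gene body Ifit3 had 6.69, 8.56 and 3.71 CPM in WT against 19.2, 11.1 and 12.3 CPM in the knockout. For Ifit3b gene body values were 6.36, 7.05 and 3.57 CPM in WT against 17.5, 10.4 and 11.1 CPM in the knockout. The 6 libraries fell in the same order for both copies, with knockout replicate 1 the highest and WT replicate 3 the lowest. The log2 fold changes there were 1.18 ± 0.34 for Ifit3 and 1.21 ± 0.32 for Ifit3b. At the TES Ifit3 had 39.6, 83.4 and 21.9 CPM in WT against 153, 107 and 62.0 CPM in the knockout. Knockout replicate 3 lay below WT replicate 2 there, so the groups overlapped, and the log2 fold change was 1.21 ± 0.30. At the TES of Ifit3b WT had 15.4, 32.4 and 10.5 CPM and the knockout 59.0, 75.4 and 54.6 CPM, with no overlap and a log2 fold change of 1.82 ± 0.29. With the counts of both copies summed, an alternative chosen after seeing the data, the log2 fold changes were 1.35 for the TSS, 1.19 for the gene body and 1.38 for the TES.

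The OAS genes differed in where the difference was largest. Oas1a (chr5:120896256-120907544), an oligoadenylate synthetase, had 9.80, 18.6 and 11.2 CPM at the TSS in WT against 46.1, 64.1 and 47.9 CPM in the knockout. This was the largest log2 fold change of the 10 genes in any region, 2.07 ± 0.30, with no overlap of the groups. The WT values of Oas1a there rest on few reads, as do those of Oasl2 below. So do WT replicate 1 at the TSS of Rsad2 and WT replicate 3 at the TES of Ifit3b. The gene body of Oas1a had 8.34, 11.2 and 3.17 CPM in WT against 17.5, 15.6 and 11.9 CPM in the knockout, a log2 fold change of 1.01 ± 0.41. Its TES had 28.4, 27.5 and 14.9 CPM in WT against 61.3, 70.4 and 38.8 CPM in the knockout, a log2 fold change of 1.31 ± 0.27. The groups stood apart in both regions, though in the gene body WT replicate 2 came close to knockout replicate 3. Oas1a shares an identical promoter run of 73 bases with its neighbour Oas1g, whose start lies 8642 bp from the near end of Oas1a, so reads of these copies can also be mixed.

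Oasl2 (chr5:114896926-114912245), an OAS-like protein, had 9.25, 10.3 and 6.72 CPM at its TSS in WT against 22.5, 10.1 and 17.2 CPM in the knockout. These values rest on 10 to 47 reads per library, the groups overlapped through knockout replicate 2, and the log2 fold change was 0.94 ± 0.41. Its gene body had 21.3, 28.1 and 23.8 CPM in WT against 55.4, 56.8 and 52.2 CPM in the knockout. The 3 knockout libraries lay close together there and well above WT, with a log2 fold change of 1.17 ± 0.15. The TES of Oasl2 had 42.6, 50.0 and 27.5 CPM in WT against 108, 107 and 92.4 CPM in the knockout, again with no overlap, and a log2 fold change of 1.39 ± 0.24.

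Isg15 (chr4:156199424-156200818) is the shortest of the genes, with a span of 1395 bp, so its 3 regions lie close together on the genome. Its TSS had 39.7, 43.4 and 44.8 CPM in WT against 91.2, 124 and 147 CPM in the knockout. For its short gene body the values were 3.54, 4.28 and 1.94 CPM in WT against 11.5, 7.86 and 7.0 CPM in the knockout. At the TES Isg15 had 176, 119 and 188 CPM in WT against 299, 297 and 296 CPM in the knockout. No region showed an overlap, and the knockout libraries were nearly equal at the TES. The counted gene Agrn lies 1890 bp beyond the TES end of Isg15, and the predicted gene Gm46878 overlaps that end by 80 bp. Whether the TES window of Isg15 holds fragments from either was not tested. The log2 fold changes of Isg15 were 1.50 ± 0.20 for the TSS, 1.45 ± 0.34 for the gene body and 0.88 ± 0.26 for the TES.

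Rsad2 (chr12:26442743-26456452) and Cmpk2 (chr12:26469117-26479837) are neighbours, read in opposite directions from starts that lie 12763 bp apart. The TSS of Rsad2 had 10.9, 25.9 and 16.0 CPM in WT against 55.7, 56.1 and 53.0 CPM in the knockout, a log2 fold change of 1.71 ± 0.29. Its gene body had 19.7, 27.9 and 17.7 CPM in WT against 39.2, 45.0 and 36.6 CPM in the knockout, a log2 fold change of 0.89 ± 0.20. At the TES of Rsad2 WT had 33.1, 37.3 and 39.8 CPM and the knockout 65.9, 75.4 and 91.5 CPM, a log2 fold change of 1.08 ± 0.23. The groups stood apart in the 3 regions. Cmpk2 had smaller differences, none of them called. At the TSS of Cmpk2 WT had 20.7, 18.6 and 27.2 CPM and the knockout 29.8, 27.4 and 29.3 CPM, a log2 fold change of 0.35 ± 0.26 with WT replicate 3 just under the lowest knockout library. Its gene body had 12.9, 16.4 and 13.6 CPM in WT against 18.5, 22.3 and 17.3 CPM in the knockout, a log2 fold change of 0.44 ± 0.18. At its TES the groups overlapped, with 19.5, 31.4 and 12.7 CPM in WT, 36.8, 18.7 and 17.2 CPM in the knockout, and a log2 fold change of 0.22 ± 0.42. The rise called at the TSS and TES of Rsad2 was thus not matched by a call at its neighbour, and the difference between these 2 genes was not tested. The TSS call of Rsad2 was lost on leaving out any library but WT replicate 2 and knockout replicate 1, with log2 fold changes of 1.45 to 2.01 over the 6 fits. Its TES call was lost only without WT replicate 1, with log2 fold changes of 0.95 to 1.17.

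Bst2 (chr8:71534255-71537472) had 54.4, 78.6 and 62.7 CPM at the TSS in WT against 101, 122 and 105 CPM in the knockout. Its gene body had 5.31, 6.38 and 5.97 CPM in WT against 12.8, 11.4 and 14.4 CPM in the knockout. The TES of Bst2 had 37.2, 50.0 and 36.7 CPM in WT against 65.9, 64.4 and 87.0 CPM in the knockout. The groups stood apart in each region, although no region was called. The log2 fold changes of Bst2 were 0.77 ± 0.18 for the TSS, 1.13 ± 0.19 for the gene body and 0.84 ± 0.23 for the TES.

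Rtp4 differed most between its own regions. Its RefSeq span (chr16:23520219-23614222) covers 94004 bp. The low-coordinate edge of this span overlaps the high-coordinate edge of Masp1 by 1022 bp. Whether the TSS window of Rtp4 holds fragments from Masp1 was not tested. At the TSS Rtp4 had 37.0, 16.5 and 32.3 CPM in WT against 38.3, 21.9 and 31.1 CPM in the knockout, a log2 fold change of 0.04 ± 0.33. The gene body had 75.8, 109 and 54.4 CPM in WT against 124, 99.9 and 115 CPM in the knockout, a log2 fold change of 0.50 ± 0.24. The groups overlapped in both regions: at the TSS the WT and knockout values were interleaved, and in the gene body WT replicate 2 lay above knockout replicate 2. At the TES of Rtp4 WT had 47.9, 63.7 and 25.8 CPM and the knockout 135, 156 and 164 CPM, with no overlap and a log2 fold change of 1.77 ± 0.26. The overlapping gene Masp1, a complement-activating protease, showed log2 values of -0.25, -0.01 and 0.06 for TSS, gene body and TES in turn.

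**Figure D2:**
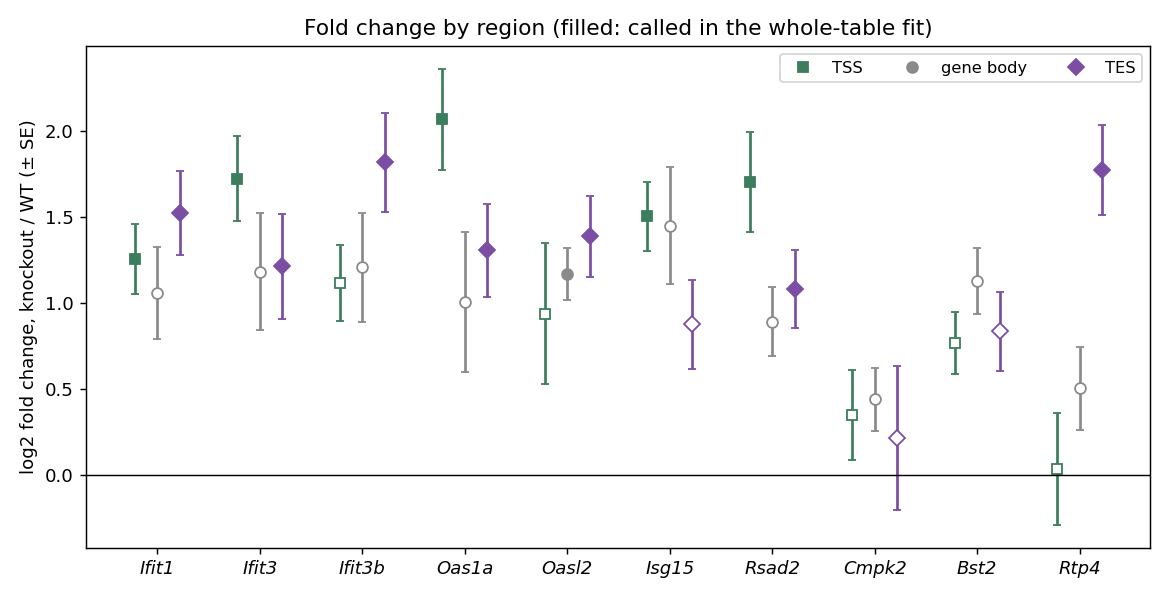
Log2 fold change of RPB1 counts, knockout over WT, of the 10 genes in the TSS window (squares), the gene body (circles) and the TES window (diamonds), with ± SE (n = 3 per genotype) and filled symbols for genes called over the whole table. Oas1a at the TSS (2.07), Ifit3b at the TES (1.82) and Rtp4 at the TES (1.77) lie highest, and the 3 values of Cmpk2 lie between 0.22 and 0.44.

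The fold change was largest at the TSS for 4 genes (Ifit3, Oas1a, Isg15 and Rsad2), at the TES for 4 (Ifit1, Ifit3b, Oasl2 and Rtp4) and in the gene body for 2 (Cmpk2 and Bst2). This order is of estimates only. For Isg15, Oasl2 and Cmpk2 the largest value exceeded the next by less than the larger of their SEs. The range over the 3 regions was widest for Rtp4 (1.74 on the log2 scale), whose counted span is uncertain, and Oas1a (1.06), and narrowest for Cmpk2 (0.22). To compare regions within a gene, the TSS and TES counts were each set against the gene body of the same library. The TSS to gene body ratio of Rsad2 was 0.552, 0.925 and 0.905 in WT and 1.42, 1.25 and 1.45 in the knockout, so the groups stood apart. Its log2 change was 0.80 ± 0.28. For Oas1a the log2 change of this ratio was 0.87 ± 0.42, for Ifit3 0.50 ± 0.30 and for Rtp4 -0.57 ± 0.44, with overlapping groups for each. For Isg15 it was 0.00091 ± 0.16, also with overlapping groups. None of the 10 genes was called for this ratio, against 0% of 12679 genes by the edgeR interaction test. At an unadjusted p under 0.05 that test gave 462 genes (3.64%) with Rsad2 the only one of the 10, and limma on the log2 ratio called 0.

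The TES to gene body ratio of Rtp4, whose counted span is uncertain, was 0.632, 0.584 and 0.474 in WT and 1.09, 1.56 and 1.43 in the knockout. Each knockout library lay above each WT library, and the log2 change was 1.27 ± 0.21. The TES to gene body ratio of Bst2 was 7.02, 7.84 and 6.15 in WT and 5.17, 5.67 and 6.05 in the knockout, so each knockout library lay below each WT library, and the log2 change was -0.29 ± 0.25. The change was 0.64 ± 0.36 for Ifit3b and -0.59 ± 0.33 for Isg15. None of the 10 was called for this ratio either, against 0.0158% of 12677 genes by the edgeR interaction test. At an unadjusted p under 0.05 there were 722 genes (5.7%), Rtp4 the only one of the 10 among them, and limma on the log2 ratio called 0. The medians of the 10 genes were -0.04 for the TSS ratio and 0.15 for the TES ratio, where those of all genes were -0.02 and -0.01. Rtp4 was called for the TES ratio without WT replicate 3, with a log2 change between 1.15 and 1.40 over the left-out libraries.

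**Figure D3:**
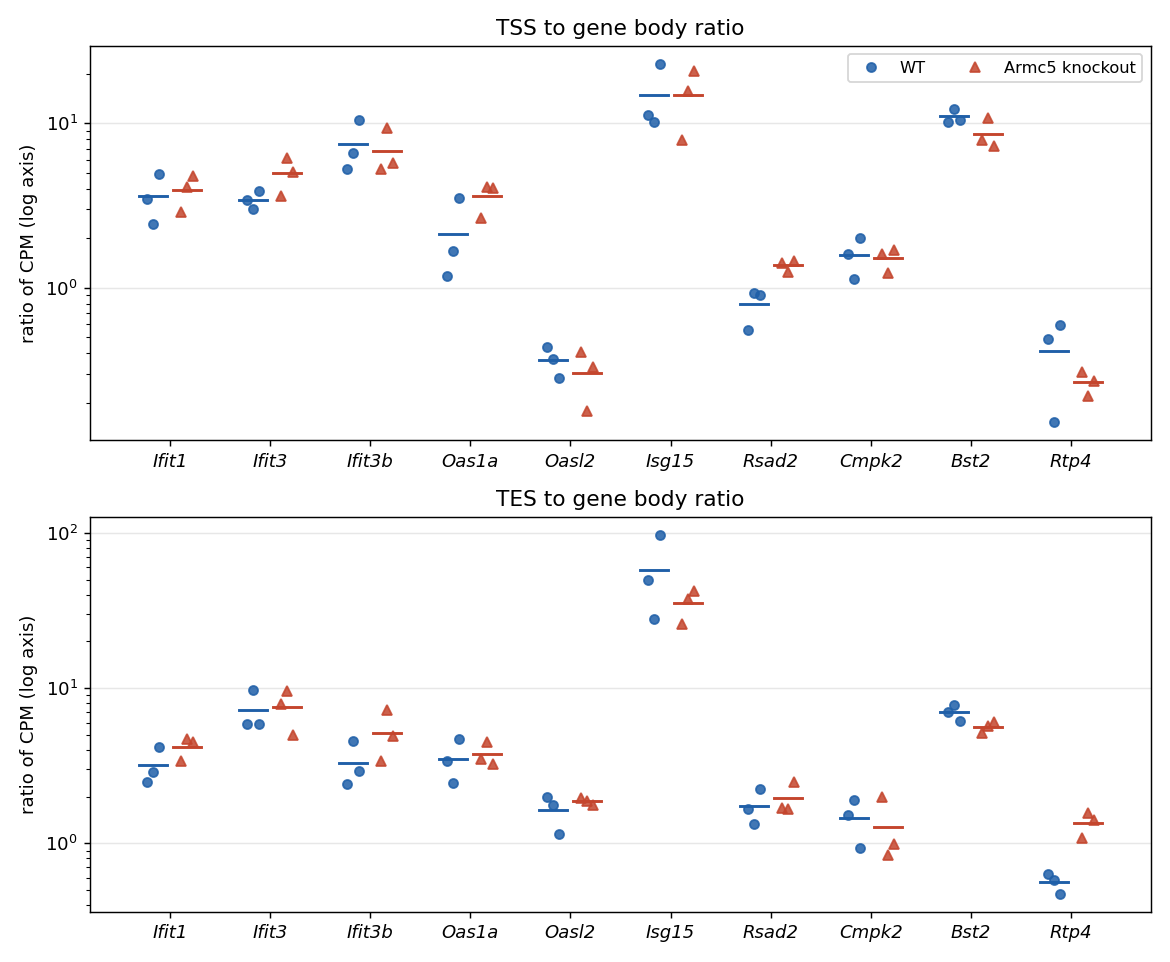
Ratio of scaled counts (log axis) at the TSS (upper panel) and at the TES (lower panel) to those in the gene body of the same library, for each of the 10 genes. Circles are WT libraries, triangles knockout libraries and bars group means (n = 3), and the knockout libraries lie wholly above WT for Rsad2 in the upper panel and for Rtp4 in the lower one, and wholly below WT for Bst2 in the lower one.

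Levels can be compared between genes only per length, and of the 3 regions only the gene body has a length that can be matched to an annotation. Per kilobase of RefSeq span, WT gene body RPB1 was highest for Isg15 at 2.33 ± 0.86 CPM per kb and Bst2 at 1.83 ± 0.17, followed by Oasl2 at 1.59 ± 0.23 and Rsad2 at 1.59 ± 0.40 (SD, n = 3). Cmpk2 had 1.34 ± 0.18, Ifit1 1.17 ± 0.41, Ifit3 1.08 ± 0.42 and Ifit3b 0.96 ± 0.31 CPM per kb. Rtp4 had 0.85 ± 0.29 and Oas1a 0.67 ± 0.36 CPM per kb. Whether the authors counted Rtp4 over this whole span of 94004 bp is not given in the sources used here, so its value per kilobase, its place in the order and the site of its TSS window are uncertain. Oas1a was the lowest of the other genes. How much of each span was counted as gene body beside the TSS and TES windows is not given either. The values and places of short genes such as Isg15 (1395 bp) and Bst2 (3218 bp) are therefore uncertain too. Neighbours in this order differed by less than the larger of their SDs, except Bst2 and Oasl2. The median of 12384 matched genes was 1.73 CPM per kb, so 8 of the 10 lay below it in WT.

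Upstream in the pathway, the lists used were chosen with results of these data known. Of 7 genes for the type I receptor, its kinases and ISGF3, 1 rose in 1 region, the gene body, where 0.244% of all genes tested rose. It was Irf9, the DNA-binding part of ISGF3, with 26.5 ± 1.63 CPM there in WT and 51.5 ± 1.13 in the knockout (SD, n = 3). Its log2 fold change there was 0.96 ± 0.13, with an edgeR adjusted p of 0.0436. The call was lost on leaving out any 1 library, with adjusted p from 0.0520 to 0.308, with the replicate number as a block (0.258), with the mouse number series as a covariate (0.122) and with joint scaling (0.122). Stat2, another part of ISGF3, had log2 values of 0.19 ± 0.21 for the TSS, 0.44 ± 0.18 for the gene body and 0.73 ± 0.23 for the TES. The receptor chain Ifnar1 had -0.12 ± 0.16 at the TSS and 0.12 ± 0.22 at the TES. None of these was called. The medians of the 7 genes were 0.07, 0.19 and 0.32 in the 3 regions. The 10 interferon genes on the ligand list were not in the tables and were not analysed here.

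Of 5 genes for ISG15 conjugation and removal, 1 rose, at the TES, where 0.812% of all genes tested rose. It was Usp18, the protease that takes ISG15 off proteins and also dampens receptor signalling, which is on the list of feedback inhibitors too. At the TES it had 83.6 ± 15.5 CPM in WT against 160 ± 20.8 in the knockout (SD, n = 3), a log2 fold change of 0.93 ± 0.24 and an edgeR adjusted p of 0.0422. The adjusted p was 0.291 without WT replicate 1, 0.101 without WT replicate 2, 0.269 without knockout replicate 2 and 0.0884 without knockout replicate 3, and it was 0.0516 with RLE scaling and 0.131 with joint scaling. At the TSS Usp18 had a log2 fold change of 1.05 ± 0.20 that was not called. Herc6, the main mouse ligase for ISG15, had log2 fold changes of 0.38 ± 0.19, 0.73 ± 0.15 and 1.05 ± 0.28 in the 3 regions, none called. Of the 5 feedback inhibitors measured, Usp18 was the only one called, in 1 region (TES, 0.812% of all genes tested called higher).

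Among 8 further IFIT, OAS and RNase L genes in the tables, 1 rose at the TSS (0.339% of all genes tested), 2 at the TES (0.812%) and 0 over the gene body (0.244%). The TSS call was Ifit1bl2, described above, and it was lost without WT replicate 1, WT replicate 2, knockout replicate 2 or knockout replicate 3, with edgeR adjusted p from 0.224 to 0.309, with RLE scaling (0.0525) and with limma-voom (limma adjusted p 0.104). Ifit2, which lies next to Ifit3, had 26.1 ± 8.00 CPM at the TES in WT and 56.5 ± 3.13 in the knockout, a log2 fold change of 1.15 ± 0.25 that was not called without WT replicate 1 (edgeR adjusted p 0.103) or knockout replicate 2 (0.0664). Oas1g, the neighbour and near copy of Oas1a, had 19.0 ± 11.99 CPM at the TES in WT and 48.6 ± 9.92 in the knockout. Its log2 fold change was 1.45 ± 0.33, not called without WT replicate 3 (edgeR adjusted p 0.0651) or knockout replicate 1 (0.0594), with table totals (0.0516), with joint scaling (0.0528) or with DESeq2 (DESeq2 adjusted p 0.0768). The medians of the 8 genes were 1.23 for the TSS, 0.41 for the gene body and 0.92 for the TES. Oas2, a larger synthetase, had log2 fold changes of 1.49 ± 0.49, 0.31 ± 0.32 and 0.85 ± 0.32 in the 3 regions, and Oas3 had 0.36 ± 0.56, 0.18 ± 0.30 and 0.88 ± 0.49, none called.

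Of 43 other interferon effectors measured, 1 rose at the TSS (0.339% of all genes tested), 0 over the gene body (0.244%) and 9 at the TES (0.812%), and none fell. Their log2 fold changes were above 0 at the TSS of 38 genes, the gene body of 43 and the TES of 42 (48.4%, 46.3% and 47.7% of all genes tested), with medians of 0.49, 0.55 and 0.57. Ddx60, a helicase of antiviral RNA sensing, had 39.6 ± 10.1 CPM at the TSS in WT against 124 ± 6.59 in the knockout, a log2 fold change of 1.68 ± 0.20, and 0.93 ± 0.23 at the TES. Its TSS call was lost without knockout replicate 3 (edgeR adjusted p 0.0561), and its TES call was kept only without WT replicate 2. Ifi44 had 28.4 ± 13.6 CPM at the TES in WT and 66.3 ± 8.34 in the knockout, a log2 fold change of 1.30 ± 0.26 that stayed called without any 1 library. Trim30a, a TRIM-family protein, had 39.4 ± 11.1 and 79.7 ± 7.80 CPM at the TES, a log2 fold change of 1.05 ± 0.23, not called without WT replicate 1 (edgeR adjusted p 0.0554) or WT replicate 3 (0.0681), nor with joint scaling (0.0552). The other TES calls were Nmi, Xaf1, Ifi27, Ifi27l2a, Iigp1 and Samd9l. The response element core was found in 15 of the 41 promoters of these effectors in the promoter table (36.6%).

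**Figure D4:**
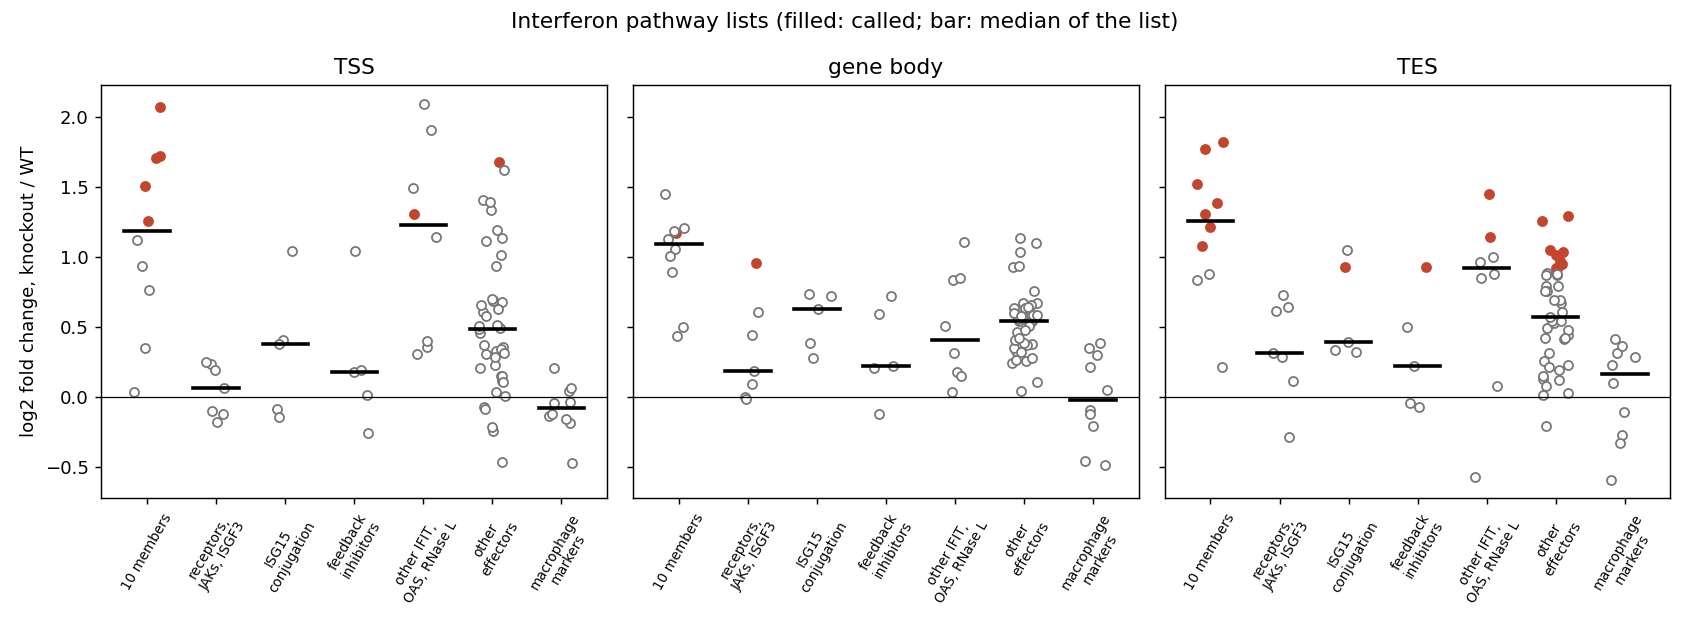
Log2 fold changes of RPB1 counts, knockout over WT, for the 10 genes, 5 lists of interferon pathway genes and the macrophage markers, in the TSS window, the gene body and the TES window. Points are genes, filled where called over the whole table, and bars are list medians: those of the 10 genes lie at 1.19, 1.09 and 1.26, and those of the receptor and ISGF3 genes at 0.07, 0.19 and 0.32.

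Markers of cells that often carry interferon responses were followed beside these values. Of 16 macrophage markers 10 were in the tables, and none was called in any region. Their summed level ran from 202 to 261 CPM in WT against from 194 to 225 CPM in the knockout at the TSS, and from 196 to 249 and from 187 to 216 CPM in the gene body. At the TES the sums did not overlap, from 655 to 741 CPM in WT against from 801 to 891 CPM in the knockout, and Cd68 made up the most of this, with 320.7 ± 63.1 and 428.7 ± 27.5 CPM (SD, n = 3). None of the 8 medulla markers measured was called. Their log2 fold changes were above 0 for 4, 8 and 8 of them in the 3 regions, with medians of 0.09, 0.82 and 0.57. Their sums ran from 154 to 179 CPM in WT and from 181 to 319 CPM in the knockout at the TSS, without overlap, from 275 to 518 and from 364 to 1024 CPM in the gene body, and from 696 to 1843 and from 1080 to 3058 CPM at the TES, both with overlap. Of 8 endothelium markers 5 were in the tables, and none was called. Their median log2 fold changes were -0.14, -0.12 and -0.14 in the 3 regions, with 2, 1 and 0 of them above 0. Of 12 lymphocyte markers only Lck was in the tables, and of 6 plasmacytoid dendritic markers only Pacsin1. The defining markers of these last 2 cell types were therefore not analysed here. The part of macrophages, endothelium, medulla and cortex in the result was not tested.

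Within the genotypes the libraries also had an order. In the gene body WT replicate 2, the shallowest library, was the highest WT library for 10 of the 10 genes, and WT replicate 3 the lowest for 7. At the TES WT replicate 2 was highest for 7 genes and at the TSS for 6. Among the knockout libraries replicate 3 was lowest for 7 genes at the TES, and no such order appeared at the TSS. The share of all genes tested with the same order was not counted, so it is not read as a trait of these genes. What part depth has in this order was not tested.

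The profile of the 10 genes was last set beside that of every other gene, over 18 values (log2 CPM of 6 libraries in 3 regions, centred within gene and region) and 12643 genes. Pearson's r to the mean profile of the set was highest for Serpinb1a at 0.97, Ifi44 at 0.96, Wnt9a at 0.96 and Rdh10 at 0.95, predicted genes left out. Ifi27 at 0.94, Xaf1 at 0.94, Id4 at 0.93 and Ddx60 at 0.93 followed. Of these 8, 4 were on the list of other interferon effectors, which holds 43 measured genes and was chosen with results of these data known. Among the 10 genes themselves, r to the mean of the other members was 0.94 for Ifit3b, 0.94 for Ifit1, 0.91 for Ifit3 and 0.91 for Oas1a. Oasl2 had 0.89, Bst2 0.88, Rsad2 0.86 and Isg15 0.84, while Rtp4 had 0.65 and Cmpk2 0.56. The mean profile holds the knockout against WT difference on which the 10 genes were selected, so any gene with that difference can rank high. The 18 values also share 6 libraries and their depths, so these correlations are a description and nothing is read from the count of listed genes.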

How the data were processed

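RPB1 ChIP-seq libraries of 3 WT and 3 Armc5(-/-) mice were grouped by their titles and genotype labels. The authors deposited whole-number read counts per gene for TSS, gene body and TES; a joint table repeated them (0 cells differed), and a log2 CPM table was not used. The submitters' processing notes name, without roles or order, limma, edgeR, HOMER, MACS2, Picard, BWA, Trimmomatic and bcl2fastq 2.20, and the builds mm10 and GRCm38. Window widths, the counting tool, the treatment of reads that match several copies, strand and input use: not given in the sources used here.

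Each region table was fitted whole with edgeR 4.0.16 (R 4.3.3; TMM scaling, filterByExpr with minimum counts of 10 and 15 in total, glmQLFit, glmQLFTest), with Benjamini-Hochberg adjustment over the table and calls at 0.05. CPM are counts over the TMM-scaled library total. Ratios were tested as a region by genotype interaction with library as a block. The scripts were tested on simulated data. Alternatives were other scalings, filters, DESeq2 1.42.0, limma 3.58.1, covariates, a replicate block and leaving out each library, and, chosen after seeing the data, Ifit3 and Ifit3b summed. The 10 genes, the pathway and marker lists and the tests were chosen with earlier results of these data known. Beside the 10 genes and their neighbours the text names, of each pathway list, up to 3 called genes by smallest p and the 8 genes most like the set; Stat2, Ifnar1, Herc6, Oas2, Oas3 and Gm10800 and the remaining TES calls were named after their values were seen. No library pair of a genotype agreed within sampling noise. One item is not reported here. Counting error and the spread between 3 animals limit the precision.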

Additional observations from a re-analysis of the deposited data

How the results depend on the processing

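Of the 10 genes 1 was called in the gene body: the count was 0 with joint scaling of the 3 regions, 6 with DESeq2, 0 with the replicate block, 0 with the mouse number series as a covariate and 4 with the depth class as a covariate. Over all genes these settings called 0, 179, 0, 0 and 95 in the gene body, in either direction. For the TES ratio the depth class gave 1. Leaving out 1 library gave 0 to 5 calls at the TSS, 0 to 1 in the gene body and 0 to 1 for the TES ratio. Over all genes the calls ran from 5 to 158 at the TSS (43 reported), from 0 to 179 in the gene body (32) and from 61 to 194 at the TES (115). No pairing of same-numbered libraries was assumed, though replicate 1 of each genotype has a mouse number that begins with C and the other replicates do not. In their deviations from the genotype means, same-numbered libraries correlated at 0.44, -0.21 and 0.36 at the TSS, at 0.08, -0.58 and 0.27 in the gene body and at 0.03, -0.31 and 0.21 at the TES. Whether same-numbered libraries share a batch was not tested. The replicate block gave 7, 0 and 8 calls among the 10 in the 3 regions and 0 for each ratio. Over all genes it gave 100, 0 and 194 calls in the 3 regions. Joint scaling moved the median of all genes to 0.24, -0.12 and -0.12, and that of the 10 genes to 1.44, 0.98 and 1.14. The gene body values of the 10 genes stayed above 0 in every setting run. Log2 values that changed sign were Rtp4 at the TSS (-0.11 with limma-voom); for the TSS ratio Isg15 (-0.0063 with the replicate block, -0.026 with the mouse series, -0.39 with depth class) and Ifit1 (-0.10 with depth class); and for the TES ratio Ifit3 (-0.038 with table totals), Rsad2 (-0.00081 with depth class) and Cmpk2 (0.11 with depth class). Over the left-out libraries the range was -0.20 to 0.23 for Rtp4 at the TSS and -0.20 to 0.56 for Cmpk2 at the TES. For the TSS ratio it was -0.11 to 0.40 for Ifit1, -0.40 to 0.16 for Ifit3b, -0.29 to 0.38 for Isg15, -0.53 to 0.046 for Oasl2 and -0.27 to 0.12 for Cmpk2. For the TES ratio it was -0.15 to 0.32 for Ifit3, -0.064 to 0.36 for Oas1a, -0.018 to 0.39 for Oasl2, -0.048 to 0.36 for Rsad2 and -0.61 to 0.027 for Cmpk2. The cause of these changes was not tested.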
